A study of Drosophila melanogaster with 12 samples.

Results

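The MCM helicase genes of Drosophila melanogaster were followed through ovaries in which the germline had been depleted of Sfmbt. Members were the rows of the deposited gene count table whose identifier maps to Mcm2, Mcm3, dpa, Mcm5, Mcm6, Mcm7 or Mcm10, and all 7 were found among 17768 rows. The series holds 12 samples, of which the 6 RNA-seq libraries carry these measurements and the 6 ChIP-seq samples (anti-Pho on yw ovaries, and anti-GFP on GFP-Sfmbt knock-in and untagged Oregon-R ovaries, 2 replicates each) bear on them through a table of summits. Both RNA groups carried the nanos-Gal4 driver, which acts in the germline and leaves the somatic follicle cells without the hairpin. The control group expressed UAS-mCherry RNAi, a hairpin against a protein that flies do not make, and the depleted group expressed UAS-Sfmbt RNAi from 1 line (TRiP.HMS00473). Ovaries came from 2-day-old females, and each group had 3 biological replicates. Sfmbt binds DNA-bound Pho in PhoRC, a Polycomb complex, and the RNA comparison asks which ovary transcripts change when the germline lacks it.

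The proteins encoded by Mcm2, Mcm3, dpa, Mcm5, Mcm6 and Mcm7 form a ring that unwinds DNA ahead of the replication fork. The origin recognition complex, Cdc6 and the product of dup, the fly Cdt1, load the ring onto chromatin before S phase, and Cdc45 and the GINS complex later join it to make the active helicase, called CMG. Mcm10 is no part of the ring; it binds the loaded helicase and is needed for it to start unwinding. In the ovary, cyst cells and young follicle cells divide, nurse cells and older follicle cells replicate their DNA without dividing, follicle cells amplify the chorion genes, and the oocyte is stocked with replication proteins for the embryo.

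The libraries held 34057506 to 51297961 counted fragments, and the MCM genes had 2702 to 16140 fragments each per library. At these counts the counting error is below the spread between libraries. That spread was smallest for Mcm7 and Mcm10 in mCherry RNAi, with coefficients of variation of 2.15% and 2.90%. Sfmbt itself had 122 to 146 CPM (fragment counts as a rate of the library total, scaled between libraries by TMM factors) in mCherry RNAi and 36.7 to 43.8 CPM in Sfmbt RNAi. Germline and follicle markers were present in both groups, with vas at a mean of 173 CPM and tj at a mean of 160.1 CPM in mCherry RNAi. In bulk RNA, fewer cells of a type and less RNA per cell cannot be told apart.

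All 7 MCM genes were lower in Sfmbt RNAi. By the quasi-likelihood test of edgeR, with a limit of 0.05 on the adjusted p, 7 of 7 were called; of the 9667 tested genes 34.7% were called in either direction and 19.4% lower. Also, in each the 3 Sfmbt RNAi libraries lay below the 3 mCherry RNAi libraries, a separation in that direction found in 27.6% of tested genes. This separation and its share are on the TMM-scaled CPM scale. The separation was also found in all 7 in CPM of the library totals, without that factor. There Mcm6 was narrowly apart, at 164 CPM in the highest depleted library and 169 CPM in the lowest control library. In TPM (counts per exon length, as a rate of their sum in the library) the separation was found in 4 of 7, and Mcm2, dpa and Mcm6 overlapped. For library totals and TPM the share of all tested genes so separated was not counted. The median log2 fold change of the 7 MCM genes was −0.86, against −0.04 over all tested genes. Mcm5 fell most, by 63.9%, and Mcm6 least, by 31.8%.

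Mcm5 (FBgn0017577, 3R:10788524-10791150 on the plus strand, BDGP6.28) encodes a subunit at the gate through which DNA enters the ring, and in flies it also has a role in meiotic crossing over. Its transcript had 336, 315 and 338 CPM in mCherry RNAi replicates 1 to 3 and 95.3, 128 and 133 CPM in Sfmbt RNAi replicates 1 to 3. The highest Sfmbt RNAi library was at 0.423 times the lowest control library. The mean went from 330 ± 12.6 to 119 ± 20.6 CPM (SD, n = 3), a log2 fold change of −1.47 ± 0.13 SE (adjusted p by edgeR = 0.000412). Of the 7 genes, Mcm5 was the 1 lower by 2-fold or more, a class that holds 4.62% of tested genes.

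Mcm2 (FBgn0014861, 3R:8264970-8267924, plus strand) encodes the subunit on the other side of that gate, which also binds histones. Its transcript had 254, 230.2 and 237 CPM in mCherry RNAi and 127, 144 and 163 CPM in Sfmbt RNAi. The groups were apart by a smaller margin than for Mcm5, with the highest Sfmbt RNAi library at 0.706 times the lowest control library. The log2 fold change was −0.74 ± 0.10 SE, 1.66-fold lower (adjusted p by edgeR = 0.00233).

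Mcm3 (FBgn0284442, X:5323855-5326738, plus strand) encodes the subunit through which the loading complex first contacts the ring, as known from yeast. Mcm3 had 208, 181 and 215 CPM in mCherry RNAi and 98.4, 115 and 119 CPM in Sfmbt RNAi. Every depleted library was thus well below every control library, and the log2 fold change was −0.86 ± 0.10 SE (adjusted p by edgeR = 0.00128).

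The products of dpa, Mcm6 and Mcm7 sit next to each other in the ring and form a subcomplex with helicase activity of its own in vitro. For dpa (the fly Mcm4 gene; FBgn0015929, 2R:7496702-7500145, minus strand) the values were 297, 255 and 279 CPM in mCherry RNAi and 152, 169 and 193 CPM in Sfmbt RNAi. Its log2 fold change was −0.69 ± 0.11 SE (adjusted p by edgeR = 0.0036). Mcm6 (FBgn0025815, X:6674387-6677176, plus strand), which has a single exon, changed least of the 7. Its libraries had 204, 186 and 186 CPM in mCherry RNAi and 120.1, 127 and 145 CPM in Sfmbt RNAi, and the log2 fold change was −0.55 ± 0.09 SE (adjusted p by edgeR = 0.00412). Mcm7 (FBgn0020633, 3L:8891596-8894310, plus strand) had the tightest control libraries, at 249.8, 245 and 256 CPM, and 125, 142 and 144 CPM in Sfmbt RNAi. The log2 fold change of Mcm7 was −0.87 ± 0.08 SE (adjusted p by edgeR = 0.000412), close to that of Mcm3 and within the errors of both.

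Mcm10 (FBgn0032929, 2L:21179933-21182812, plus strand), outside the ring, was the lowest of the 7 in level and moved by about as much as the ring genes did on average. It had 144, 144 and 152 CPM in mCherry RNAi and 72.0, 81.4 and 82.7 CPM in Sfmbt RNAi, with no overlap (log2 fold change −0.90 ± 0.08 SE, adjusted p by edgeR = 0.000316). On a log2(CPM + 1) scale, Mcm10 stood 0.73 ± 0.07 (SD, n = 3) below the mean of the 6 ring genes in mCherry RNAi and 0.76 ± 0.06 below it in Sfmbt RNAi. The difference of −0.03 had p = 0.5 in a two-sided exact permutation test over the 6 libraries, which with 3 against 3 cannot go below 0.1. That ring mean includes Mcm5, which fell more than Mcm10. The other ring genes fell less than Mcm10, though Mcm3 and Mcm7 were within the errors. The mean of the 6 ring genes itself went from 7.94 ± 0.07 to 7.07 ± 0.16 on that scale, a difference of −0.86 (exact permutation p = 0.1, the smallest this test can give).

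**Figure D1:**
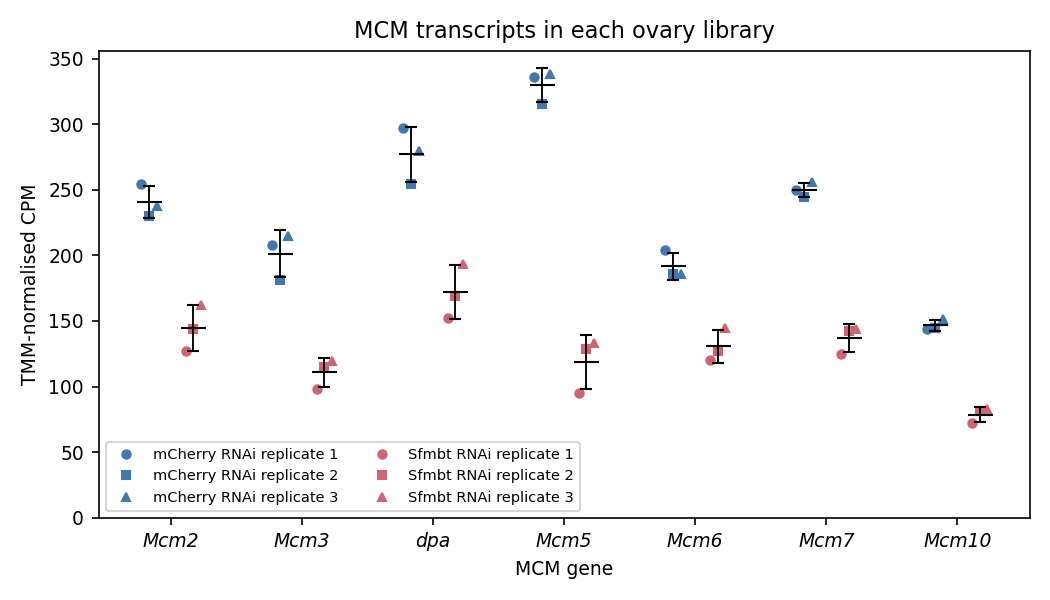
TMM-normalised CPM (vertical axis) of each MCM gene (horizontal axis) in the 3 mCherry RNAi libraries (blue) and the 3 Sfmbt RNAi libraries (red); black lines are the mean ± SD of each group. In all 7 genes the red points lie below the blue ones, and the gap is widest for Mcm5, at 330 against 119 CPM.

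The ring holds 1 copy of each subunit, so the balance between the 6 transcripts was compared per exon length, as CPM per kilobase. In mCherry RNAi the order of the mean levels was Mcm5 (134 ± 5.15), Mcm7 (102 ± 2.19), dpa (90.2 ± 6.91), Mcm2 (83.1 ± 4.30), Mcm3 (73.3 ± 6.497) and Mcm6 (68.7 ± 3.72), with Mcm10 at 52.0 ± 1.51 CPM per kilobase (SD, n = 3). The ranges of dpa and Mcm2 overlapped, as did those of Mcm3 and Mcm6, while the other neighbours in this order were separate. In Sfmbt RNAi the order was Mcm7 (55.9 ± 4.29), dpa (55.9 ± 6.72), Mcm2 (49.9 ± 6.14), Mcm5 (48.5 ± 8.42), Mcm6 (46.8 ± 4.55) and Mcm3 (40.4 ± 4.02), then Mcm10 at 27.9 ± 2.07 CPM per kilobase. Here each pair of neighbours among the 6 ring genes overlapped, and Mcm10 alone was separate from the gene above it. Within single libraries, dpa was above Mcm2 in 3 of 3 libraries of each group, and Mcm6 above Mcm3 in 3 of 3 depleted libraries. The other overlapping pairs held their order in 2 of 3 libraries. Over both groups, the mean level of the MCM genes per length lay at percentiles 78.1 (Mcm10) to 92.4 (Mcm5) of the tested genes.

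The levels of the 6 ring genes per length spread less around their mean in the depleted libraries, with a coefficient of variation over the genes of 11.9% to 13.5%, against 24.4% to 27.3% in the control libraries. Mcm5 made up 24.4 ± 0.397% of the length-corrected ring transcripts in mCherry RNAi and 16.2 ± 1.28% in Sfmbt RNAi (SD, n = 3). The shares of Mcm6 and dpa were higher in Sfmbt RNAi, going from 12.5 ± 0.497% to 15.8 ± 0.685% and from 16.3 ± 0.535% to 18.8 ± 0.520%. That of Mcm2 was also higher, going from 15.1 ± 0.374% to 16.8 ± 0.354%, without overlap. Those of Mcm3 and Mcm7 overlapped between the groups, at 13.3 ± 0.688% and 13.6 ± 0.291% for Mcm3 and 18.5 ± 0.640% and 18.9 ± 0.799% for Mcm7. Between the highest and the lowest ring gene the ratio was 1.87 to 2.07 in the control libraries and 1.39 to 1.45 in the depleted libraries. These shares are ratios within a library, so they do not depend on how libraries are scaled to each other. They sum to the same total in every library, so the lower share of Mcm5 by itself raises the others. Mcm5 was the highest ring gene in every control library, so the narrower spread and the lower ratio hold its fall. Neither was computed without Mcm5.

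Each gene was also set against the mean of the other ring genes in the same library. Mcm5 went from 0.52 ± 0.03 above that mean to 0.22 below it (mean −0.22 ± 0.14; log2 scale, SD, n = 3), a difference of −0.74, and the groups did not overlap. Mcm6, dpa and Mcm2 went the other way, by 0.37, 0.21 and 0.15, again without overlap. Each of these 4 differences had p = 0.1, the smallest that a two-sided exact permutation test can give here, and 0.175 after Benjamini-Hochberg adjustment over the 7 genes. For Mcm3, Mcm7 and Mcm10 the differences were 0.01, −0.002 and −0.03, smaller than the spread between replicates. For every gene but Mcm5 itself, the mean of the other ring genes includes Mcm5, whose fall lowers that mean. The differences of those genes therefore hold part of the fall of Mcm5, and a comparison without Mcm5 was not made.

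**Figure D2:**
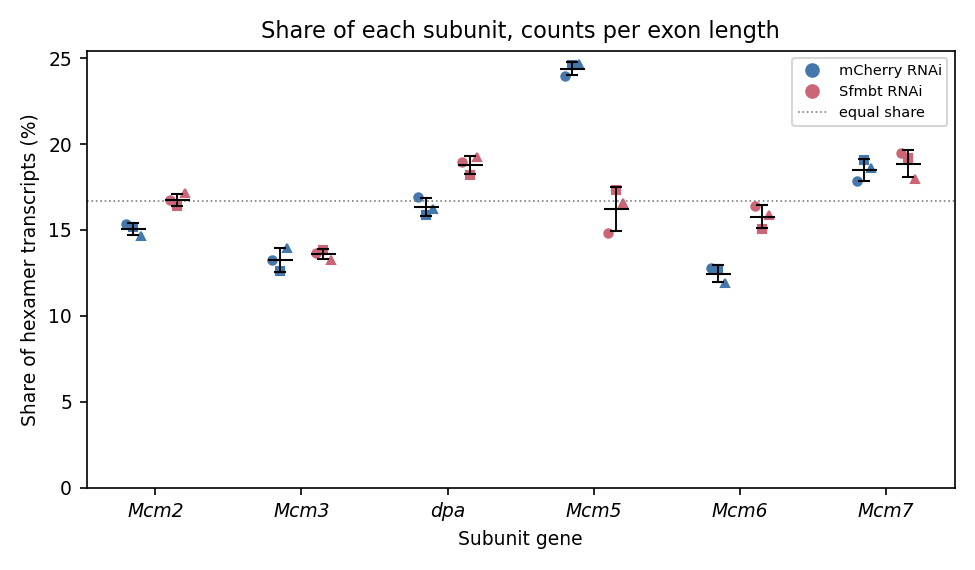
Share of each ring subunit gene (horizontal axis) in the summed counts per exon length of the 6 genes, in percent (vertical axis), for the 3 mCherry RNAi (blue) and 3 Sfmbt RNAi (red) libraries, with mean ± SD in black and the equal share as a dotted line. Mcm5 stands at 24.4% in the control libraries and 16.2% in the depleted ones. In the depleted libraries dpa and Mcm7, at 18.8% and 18.9%, lie farther from the dotted line than in the controls, and the other 4 genes lie nearer to it.

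Genes that act with the MCM proteins were read from 6 lists with 60 genes found in the table, of which 58 were expressed highly enough to test; 31 of these fell and 3 rose. Of all tested genes 19.4% fell and 15.2% rose, the shares to set beside each count of calls below. The lists were written with earlier results of these data known, so the counts describe them and are no independent support.

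Origin licensing genes moved with the MCM genes. Of 8 tested origin licensing genes all 8 fell and 0 rose in edgeR (also 0 at an unadjusted p under 0.05 and 0 in DESeq2 and limma), with a median log2 fold change of −0.98. The 8 include geminin (−0.83 ± 0.09 SE, adjusted p by edgeR = 0.000986), which is not one of the loading factors named above. Orc1, the ATPase subunit of the origin recognition complex, went from 164 ± 1.04 to 61.0 ± 10.5 CPM and Orc2, another subunit, from 74.6 ± 2.60 to 29.0 ± 4.42 CPM (SD, n = 3). Their log2 fold changes of −1.43 ± 0.13 and −1.36 ± 0.12 SE were of the size of that of Mcm5 (adjusted p by edgeR = 0.000399 and 0.000316). Orc3 had 0 fragments in all 6 libraries; CG34315 covers 100% of its exon bases on the same strand, and fragments that overlapping genes share were left out of the counts, which can set such a 0.

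The partners that join the ring split. Of 12 tested CMG partner and origin firing genes 4 fell, 1 rose and 7 passed in neither direction, with a median log2 fold change of −0.26 (−0.03 with library totals in place of TMM scaling). Ctf4, which ties the helicase to DNA polymerase alpha, and Cdc45 fell with log2 fold changes of −0.96 ± 0.10 and −0.89 ± 0.08 SE (adjusted p by edgeR = 0.000773 and 0.000412). The 4 GINS genes, given here as a whole complex after their values were seen, did not move together: Psf2 fell (−0.84 ± 0.14 SE, adjusted p by edgeR = 0.0050), while Sld5, Psf1 and Psf3 differed on the log2 scale by −0.23, −0.08 and 0.23 (adjusted p by edgeR = 0.163, 0.648 and 0.052). Cdc7, whose kinase phosphorylates the MCM ring to fire origins, rose from 100.9 ± 13.4 to 144 ± 6.64 CPM (SD, n = 3), by 0.52 ± 0.10 SE on the log2 scale (adjusted p by edgeR = 0.00941). The transcript of chif, which encodes its activating subunit, differed by 0.05 on the log2 scale (adjusted p by edgeR = 0.771).

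Among 15 tested genes of the polymerases, clamp and fork 12 fell and 3 did not pass the test, with a median log2 fold change of −0.64; 0 rose, also at an unadjusted p under 0.05 and in DESeq2 and limma. Prim2, the large primase subunit, and PCNA, the sliding clamp, had changes on the log2 scale of −1.01 ± 0.13 and −0.99 ± 0.07 SE (adjusted p by edgeR = 0.00193 and 0.000154).

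Of the 3 MCM-like genes of meiosis, rec rose, 1 did not pass the test and 1 had no fragments. In flies rec, the Mcm8 gene, and mei-217 and mei-218 encode a complex that promotes meiotic crossovers. rec rose from 12.9 ± 0.807 to 22.6 ± 1.76 CPM, or 1.76-fold (SD, n = 3; 0.81 ± 0.10 SE on the log2 scale, adjusted p by edgeR = 0.00162). mei-218 was low, at 0.977 to 1.52 CPM in the control libraries and 1.86 to 2.48 CPM in the depleted ones, and its log2 fold change of 0.80 ± 0.29 SE did not pass (adjusted p by edgeR = 0.0722). mei-217 had 0 fragments in all 6 libraries; mei-218 covers 100% of its exon bases on the same strand, and fragments shared by overlapping genes were not counted.

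The regulators of S phase genes were mixed. E2f1 with its partner Dp activates replication genes, while E2f2 and the Rbf proteins repress E2F targets. E2f1 and Dp, like chif named after their values were seen, differed on the log2 scale by 0.13 ± 0.08 and −0.10 ± 0.09 SE (adjusted p by edgeR = 0.237 and 0.388). Of the 12 tested E2F, dREAM and DREF regulators 4 fell, 1 rose and 7 did not pass, with a median log2 fold change of −0.12 (0.11 with library totals in place of TMM scaling). Rbf2 and lin-52, a dREAM subunit, fell with log2 fold changes of −0.85 ± 0.11 and −0.73 ± 0.09 SE (adjusted p by edgeR = 0.00201 and 0.00133). Myb, another dREAM subunit, rose (0.25 ± 0.08 SE, adjusted p by edgeR = 0.0393), but lost this call with no filter (0.0823) and without any 1 of 5 libraries (0.0514 to 0.151). Of 9 S phase cyclin and Cdk genes 3 fell and 6 did not pass; 0 rose in edgeR, with 2 at an unadjusted p under 0.05, 2 in DESeq2 and 0 in limma. CycE, the cyclin that drives entry into S phase, and its kinase gene Cdk2 had changes on the log2 scale of −0.95 ± 0.10 and −0.53 ± 0.07 SE (adjusted p by edgeR = 0.000656 and 0.00258).

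**Figure D3:**
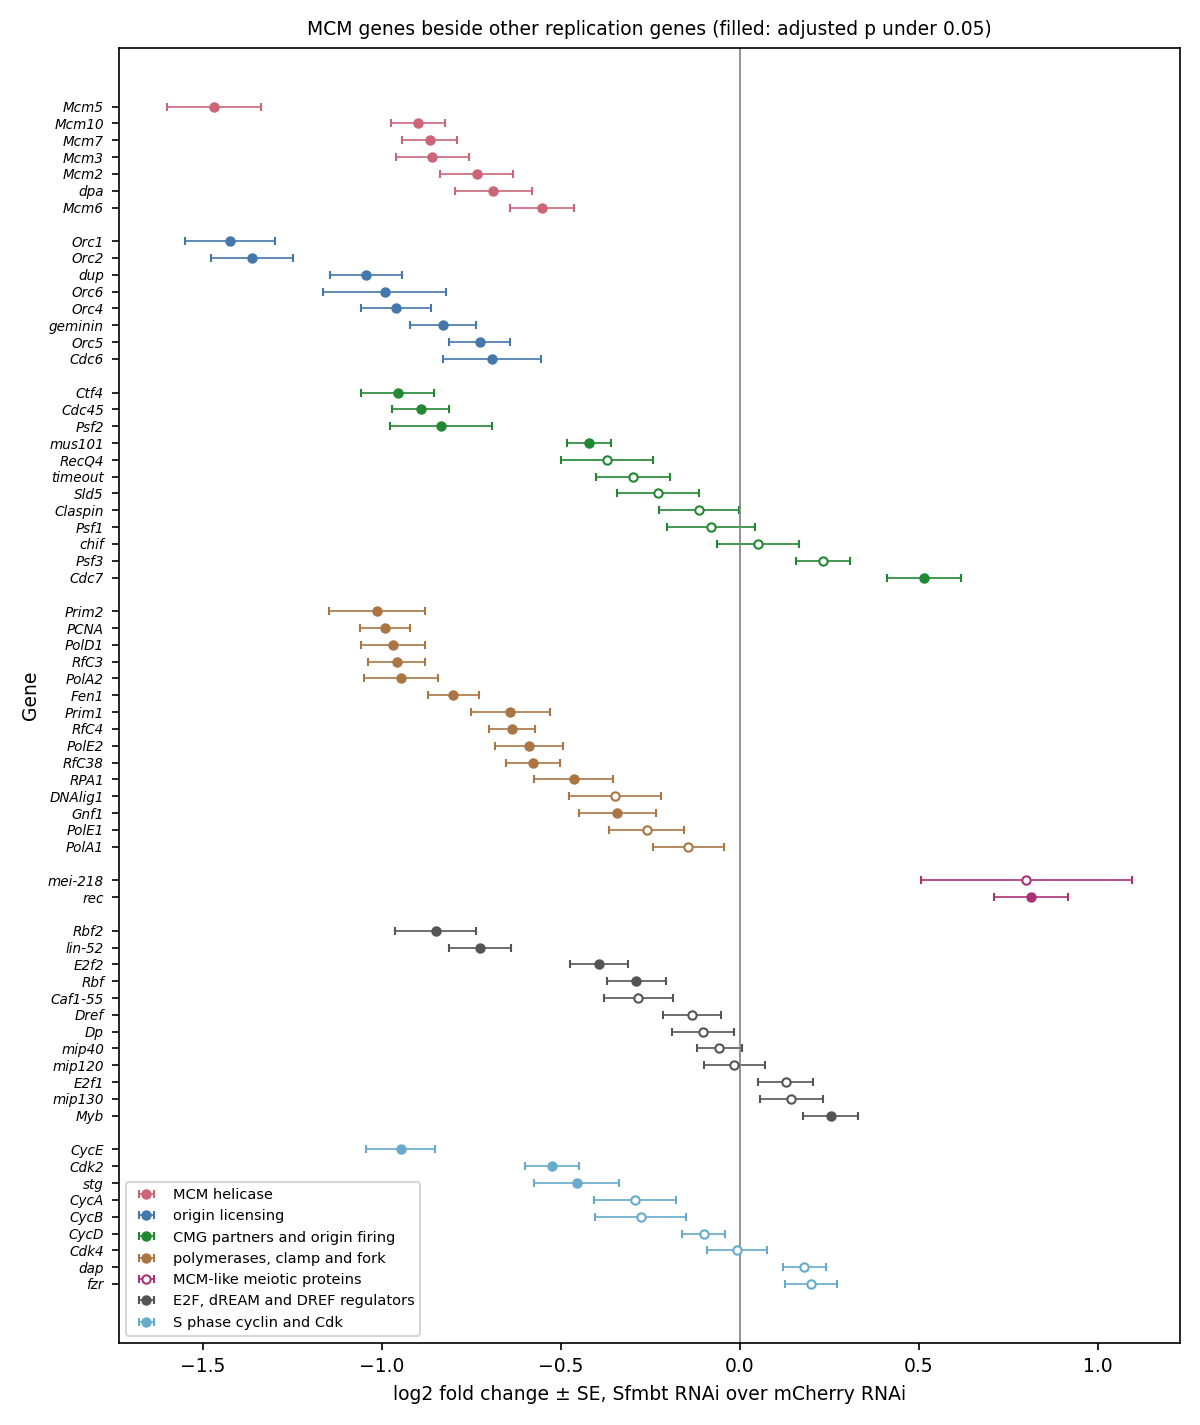
Log2 fold change ± SE of Sfmbt RNAi over mCherry RNAi (horizontal axis) for each tested gene (vertical axis) of the MCM list and 6 other lists, coloured by list; filled points passed an adjusted p of 0.05. The 7 MCM genes and the 8 licensing genes all lie left of 0, while rec and Cdc7 lie right of it at 0.81 and 0.52.

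The MCM genes are scattered over 5 chromosome arms, and their neighbours moved in both directions. Of 14 tested genes that overlap an MCM gene or lie next to it 4 rose, 3 fell and 7 were not called, with a median log2 fold change of −0.03. Over all tested genes 15.2% rose and 19.4% fell, so these few calls set the neighbours little apart. In 5 of the 7 MCM genes the nearest upstream neighbour runs in the opposite direction from the other strand. Of these 5 neighbours, RPA1, which lies 518 bases from Mcm2 and encodes the large subunit of the single-strand binding protein, fell (−0.46 ± 0.11 SE, adjusted p by edgeR = 0.0168), a call lost with library totals (0.208) and when either the third control library (0.0532) or the first depleted library (0.0530) was left out. Art1, 297 bases from Mcm5, differed by −0.19 ± 0.08 SE (adjusted p by edgeR = 0.112). didum, 1 base from dpa, CG3198, 413 bases from Mcm6, and Rnp4F, 1158 bases from Mcm3, rose with log2 fold changes of 0.48, 0.43 and 1.098 (adjusted p by edgeR = 0.0107, 0.0128 and 0.000808). Overlaps with a gene on the other strand exist for Mcm3 (CG3309), Mcm7 (asRNA:CR45871) and Mcm10 (Ret); the counting was stranded, and the latter 2 partners had 23 and 113 fragments over all libraries.

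No summit of the deposited Pho and GFP-Sfmbt peak table was assigned to an MCM gene. The table lists 352 summits at 289 genes, while the count table has 17768 rows, so most genes have no summit. The summit nearest to an MCM gene lay 7552 bases from dpa and was assigned by the authors to wech, with the authors' values of 4.89 RPM for Pho, 0.840 RPM for GFP-Sfmbt and 0.420 RPM for untagged chromatin. For the other 6 genes the nearest summit was 11622 (Mcm3) to 396642 bases (Mcm10) away. Of the 60 other replication genes 4 had a summit assigned: geminin, Gnf1, Rbf2 and CycB. GFP-Sfmbt and untagged values were 0.611 and 0.798 RPM at geminin and 0.504 and 0.504 RPM at Rbf2. They were 0.718 and 0.378 RPM at Gnf1, 4754 bases from the gene, and 0.871 and 0.210 RPM at a summit of CycB. Pho values were 4.14 RPM at geminin, 0.878 at Rbf2, 2.26 at Gnf1 and 6.40 at that summit of CycB. A summit 202 bases from Rbf was assigned to CG16989. Summits 1425 bases from PolD1, 1689 bases from Cdc45 and 4525 bases from Orc2 were likewise assigned to other genes (brm, CG32814 and rdx). The threshold behind the table is not given in the sources used here, so weaker binding at MCM genes was not assessed.

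Transcripts with a pattern like that of the ring genes were ranked by Pearson's r over the 6 libraries, on log2(CPM + 1), against the mean of the 6 ring genes. Among 6647 other genes with a mean of 10 CPM or more, 105 had r of 0.99 or more; since the libraries form 2 groups, such an r is mostly set by the difference between them. The 5 most alike were Ctf4 (r = 0.9995), cort (0.9995), CG13690 (0.999), CG1663 (0.998) and CG30001 (0.998). cort encodes an activator of the anaphase-promoting complex in female meiosis, and its level fell by 1.24 on the log2 scale (± 0.12 SE, adjusted p by edgeR = 0.000513). Each MCM gene had r of 0.985 (Mcm6) to 0.995 (Mcm2) with the mean of the other ring genes.

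Other parts of the egg chamber also differed between the groups. Summed transcripts of 9 chorion genes, which late follicle cells make, were 35271, 50570 and 45373 CPM in mCherry RNAi replicates 1 to 3 and 7547, 20193 and 12881 CPM in Sfmbt RNAi replicates 1 to 3. Summed MCM transcripts were 1693, 1556 and 1663 CPM and 790.3, 907.8 and 980.1 CPM in the same order. The control library with the most chorion RNA had the least MCM RNA. Of the depleted libraries replicate 1 was lowest in both sums, and the library with the most chorion RNA was in the middle for MCM RNA. With the log2 chorion sum of each library as a covariate, 0 of 7 MCM genes were called in edgeR (5 at an unadjusted p under 0.05), and 118 of all tested genes. The MCM log2 fold changes were then −0.51 ± 0.21 (Mcm6) to −1.03 ± 0.24 SE (Mcm5), with adjusted p = 0.114 to 0.383. In that fit, whose covariate separates the groups, the median standard error of tested genes was 2.05 times that of the reported fit.

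Markers of other cell types were measured beside these values. Summed levels of 12 germline markers were 2491 to 3077 CPM in mCherry RNAi and 3199.8 to 3707 CPM in Sfmbt RNAi, with 7 genes higher, among them vas and aub, and 2 lower (bam and bcd). The 14 follicle cell and somatic gonad markers summed to 381 to 442 and 422 to 573 CPM, with 2 higher and 1 lower of 13 tested, and 10 vitelline membrane and yolk genes to 21842 to 26175 and 21051 to 32017 CPM. Sums of 10 muscle sheath genes (1079.8 to 1449 and 562 to 1748 CPM) and of 8 hemocyte and fat body genes (709.95 to 1089.5 and 593 to 1489 CPM) overlapped between the groups. Those of 9 gut genes, 308 to 2247 CPM in mCherry RNAi and 147 to 312 CPM in Sfmbt RNAi, overlapped narrowly. LManII alone had 144 to 150 CPM in Sfmbt RNAi (log2 fold change 0.08). The 8 other gut genes were lower in Sfmbt RNAi, and the list median was −4.68 on the log2 scale, with a wide spread between libraries. In edgeR 0 genes of the vitelline membrane and yolk, muscle, hemocyte and fat body, and gut lists passed; at an unadjusted p under 0.05, and also in DESeq2, 2 vitelline membrane and yolk genes were higher and 4 gut genes lower, with 0 in the other 2 lists, and limma called 0. No defining marker of these lists was at 0 in every library, and the part of these cells in the MCM values was not tested.

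**Figure D4:**
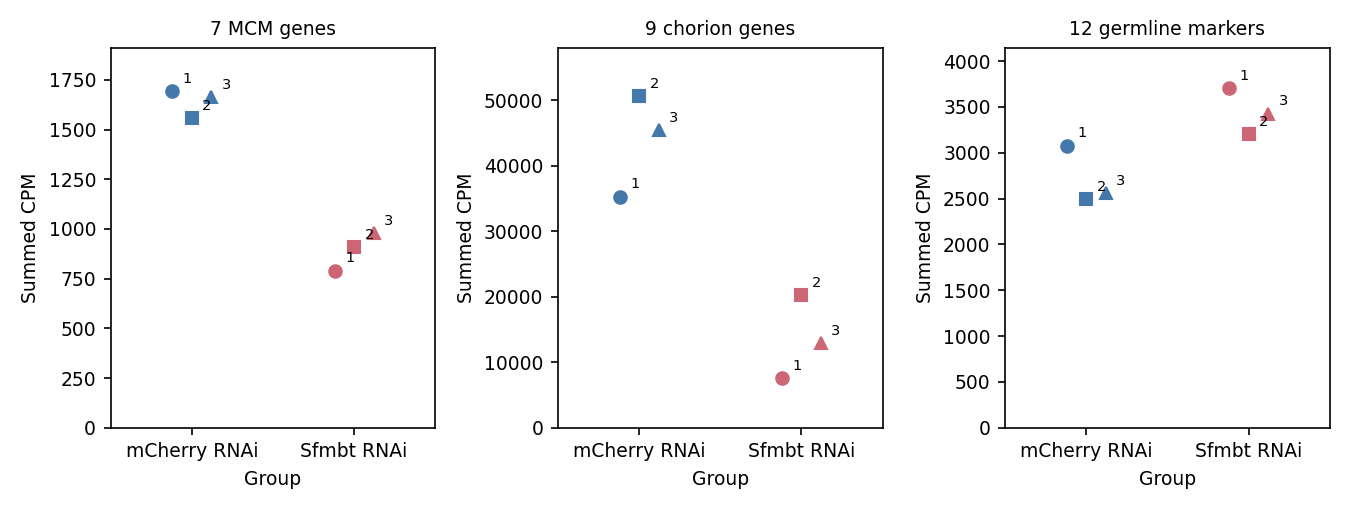
Summed CPM (vertical axes) of the 7 MCM genes, the 9 chorion genes and the 12 germline markers in each library of the 2 groups; the numbers beside the points are replicate numbers. MCM and chorion sums were lower in all 3 Sfmbt RNAi libraries, and germline marker sums were higher in all 3.

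How libraries are scaled moves every one of these fold changes together. TMM factors were 0.908 to 0.938 in mCherry RNAi and 1.05 to 1.14 in Sfmbt RNAi, and chorion and mitochondrial genes held 17.6% to 22.6% and 8.11% to 13.5% of fragments. With library totals and no factor, an alternative chosen after the data were seen, the median over all tested genes went from −0.04 to 0.19, and the split of calls from 1470 higher and 1880 lower to 3012 higher and 879 lower. All 7 MCM genes were still lower, from −0.32 for Mcm6 to −1.23 for Mcm5, and 6 of 7 were called; Mcm6 was not (−0.32 ± 0.12 SE, adjusted p by edgeR = 0.0609). With the chorion and mitochondrial genes left out before TMM scaling, also chosen afterwards, 7 of 7 were called and Mcm6 had −0.53. In that fit 1560 of 9652 tested genes were called higher and 1652 lower.

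**Figure D5:**
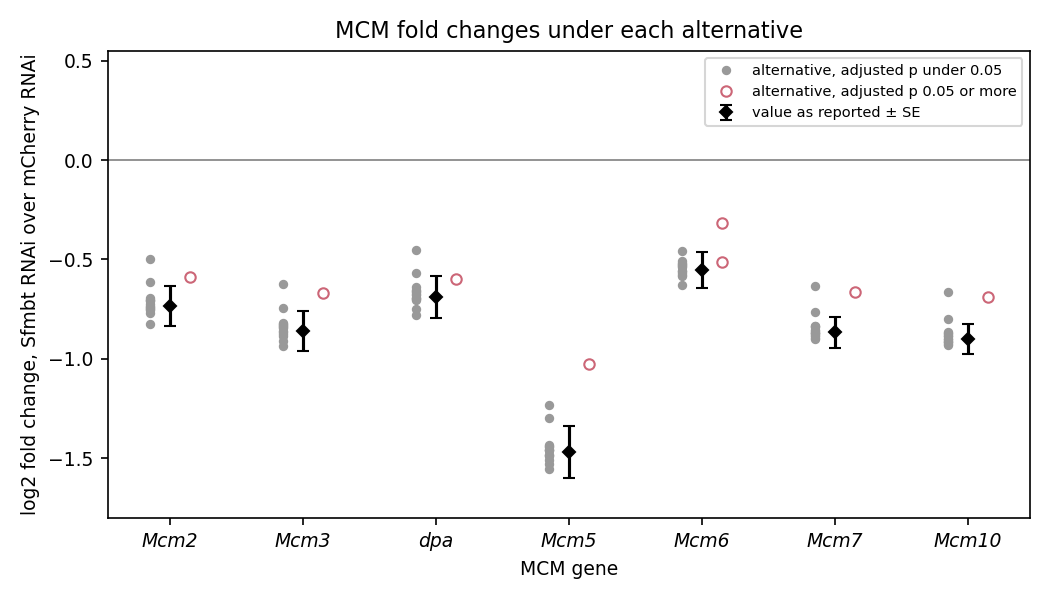
Log2 fold change of Sfmbt RNAi over mCherry RNAi (vertical axis) of each MCM gene (horizontal axis), as reported (black, ± SE) and under each of 15 alternatives (grey where the adjusted p was under 0.05, open red where it was not). The values stay below 0 in all 7 genes and run from −1.55 to −1.03 for Mcm5; the open points come from the chorion covariate and, for Mcm6, also from library totals.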

How the data were processed

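The deposited gene counts are, per the file headers, output of featureCounts 1.6.3. The submitters' processing notes name STAR 2.7.2a as aligner. Counting took reverse-stranded read pairs over the BDGP6.28 gene model, Ensembl release 101, without fragments shared by overlapping genes. The table names its columns by letters: C was read as the mCherry RNAi control and A, by elimination, as Sfmbt RNAi, with numbers as replicates. As a check, over 221 genes the log2 fold changes from this reading had r = 0.993 across genes with the log2 values of the authors' deposited table. RPM values at summits, 1 per ChIP group, are the authors'; no source used here gives the caller or window.

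Counts were tested with edgeR 4.0.16 (R 4.3.3; TMM factors, genes kept by filterByExpr at 10 counts, robust quasi-likelihood F-test, group as the only term, Benjamini-Hochberg adjustment at 0.05), a procedure tested on simulated data. SE derives from the F statistic. Alternatives used DESeq2 1.42.0, limma 3.58.1, RLE, other filters, a replicate block, a chorion covariate and left-out libraries. Named genes were the 7 members and, per list, the 2 largest called changes and those moving against most; neighbours were taken by position. Of 141 list genes 139 were matched. The members and lists were chosen with earlier results of these data known. Replicates are called biological by the labels.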

Additional observations from a re-analysis of the deposited data

How the results depend on the processing

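All 7 MCM genes were called lower with RLE factors, either other filter, DESeq2, limma voom and the replicate block. Over all genes, DESeq2 called 2039 lower of 10898 with an adjusted p, and limma voom 1871 of 9667. With no filter 1817 of 13823 tested genes were lower, and with at least 1 CPM in 3 libraries 1778 of 8447. The replicate block gave 1714 lower of 9667. The 7 MCM genes were also called without any 1 library, with Mcm5 at −1.55 to −1.30, Mcm10 at −0.93 to −0.80, Mcm7 at −0.90 to −0.77, Mcm3 at −0.94 to −0.74, Mcm2 at −0.82 to −0.61, dpa at −0.78 to −0.57 and Mcm6 at −0.63 to −0.46. The count of called genes was 1756 to 3295 when 1 library was left out (1756 without mCherry RNAi replicate 2 and 1931 without mCherry RNAi replicate 3), 2959 with the replicate block and 3350 as reported; RLE gave 1645 higher and 1654 lower. Of the other replication genes 27 to 35 fell in those fits. With the chorion covariate 118 genes were called, of which 0 were MCM genes and 1 another replication gene. The log2 fold changes were then −0.59 (Mcm2), −0.67 (Mcm3), −0.60 (dpa), −1.03 (Mcm5), −0.51 (Mcm6), −0.66 (Mcm7) and −0.69 (Mcm10), all with larger standard errors; the covariate also ended the calls of rec, Cdc7, Orc1 and PCNA. Library totals ended the call of Mcm6 (−0.32). The difference between Mcm10 and the ring genes ran from −0.071 to 0.0058 over left-out libraries, and changed sign (0.0058) without Sfmbt RNAi replicate 3; the cause was not tested. Same-numbered libraries deviated together for numbers 1 and 2 (r = 0.324 and 0.335 across genes) and not for number 3 (−0.09), so the numbers were not taken to pair the libraries; the replicate block also ended the call of Myb (adjusted p by edgeR = 0.0739). At these counts depth does not limit the MCM values; 3 libraries a group limit the permutation tests.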
